A study of Mus musculus with 12 samples.

Results

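The genes described here are the ephrins and their Eph receptors, and the semaphorins with their plexin and neuropilin receptors, in mouse hepatocytes sorted after activation of the transcriptional coactivator YAP. All gene symbols of these families were taken by name from the deposited table, with earlier results of these data known. This gave 50 of the 16116 genes. They were 5 ephrins A, 3 ephrins B, 7 EphA receptors, 5 EphB receptors, 19 semaphorins, 9 plexins and 2 neuropilins. Of the 50, 28 reached a log2 value of at least 1 in at least 2 of the 12 libraries and were tested, among 10681 genes that did so.

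The study asked what the transcription factor Sox9 does in hepatocytes with active YAP, and measured messenger RNA in 6 groups of 2 libraries. Every mouse received adeno-associated virus of type AAV2/8, in which the hepatocyte promoter TBG drives the transgene, through the retro-orbital vein at 3 weeks of age. In the YAP experiment, wild type mice given TBG-GFP formed the wild type control. Mice with genotype Sox9 fl/+ or Sox9 fl/fl were given TBG-Cre together with TBG-YAP S127A-P2A-GFP, and form the Sox9-heterozygous YAP and Sox9-null YAP groups. YAP S127A is a mutant that escapes an inhibitory phosphorylation of the Hippo pathway. In the Mst experiment all mice carried Mst1 fl/fl, Mst2 fl/fl and the ROSA26-lsl-TdTomato reporter, which Cre switches on. Those given TBG-GFP formed the floxed control. Those with an added Sox9 fl/+ or Sox9 fl/fl genotype were given TBG-Cre alone, and form the Sox9-heterozygous and Sox9-null Mst groups. Mst1 and Mst2, with the gene symbols Stk4 and Stk3, are the Hippo kinases that restrain YAP. GFP-positive or TdTomato-positive cells negative for Epcam and CD45 were sorted 3 weeks after injection in the YAP experiment and 4 weeks after it in the Mst experiment. No control received Cre, and the effects of Cre, of deleting 1 or both Sox9 alleles and of YAP activation cannot be told apart in a comparison with a control. By the viruses given, cells of the floxed control could carry only GFP and those of the Mst groups only TdTomato. The YAP groups received a second virus that their control did not. These differences cannot be told apart from the others either. Whether the 2 libraries of a group are from separate mice is not stated, so p-values reflect a spread between libraries that may be technical.

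Eph receptors are receptor tyrosine kinases whose ligands, the ephrins, sit in the membrane of the neighbouring cell. A-type ephrins are held there by a lipid anchor, B-type ephrins span the membrane, and both partners can signal into their own cell. Semaphorins are secreted or membrane-bound ligands of the plexins, and most secreted class 3 semaphorins reach plexins through the neuropilins Nrp1 and Nrp2, which are also co-receptors for vascular endothelial growth factors. The families were first known from the guidance of axons and also shape blood vessels and epithelial boundaries. In the liver, sinusoidal endothelial cells are rich in neuropilins and Plxnd1, and EphB4 with ephrin B2 marks veins against arteries.

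Across the 12 libraries the table itself set several limits. Its linear values summed to between 879620 and 1011693 per library, and the correlation across genes between libraries of a group was 0.953 to 0.982, genes not being independent replicates. Each activated library summed higher than each control (938683 or more against 920020 or less) and had more genes at a log2 value of 1 (at least 10118 against at most 10005). When all libraries were scaled to an equal sum, the median of all tested genes in the average of the 4 activated groups moved by -0.12 on the log2 scale, and with quantile normalization by -0.20, and calls that either scaling ended are given with each gene. The median difference between the means of both control groups was 0.00849 on the log2 scale, and at most 0.0286 for a guidance gene, so values of the 2 control groups carry no independent comparison of the experiments. Sox9 was at log2 values of 4.41 and 5.28 in the Sox9-heterozygous YAP libraries and at 2.28 and 2.62 in the Sox9-null YAP libraries. It was at 6.47 and 6.0 in the Sox9-heterozygous Mst libraries and at 1.41 and 1.29 in the Sox9-null Mst libraries, against 3.13 to 4.33 in the controls. Stk3 and Stk4 were at 3.78 to 4.04 and 4.82 to 4.89 in the floxed controls and at 3.98 to 4.45 and 4.09 to 4.74 in the Mst groups, without a call, and the position of each gene's amplicon against the deleted exons was not given in the sources used here. In each library, the 12 hepatocyte marker genes in the table summed to 63454 to 107953 CPM, the read count scaled to a common library total. The CD45 gene Ptprc stayed between log2 values of 0.47 and 1.60.

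Guidance genes rose where they were called, and none was called lower. A call is an adjusted p under 0.05 from limma, a linear model fitted across all kept genes, with Benjamini-Hochberg adjustment over the 10681 genes, two-sided. Against the wild type control, 3 of the 28 tested members were called higher in the Sox9-heterozygous YAP group, where 1.4% of all tested genes were, and 5 with both Sox9 alleles floxed, where 6.64% were. Against the floxed control, 8 were called higher in the Sox9-heterozygous Mst group (background 3.45%) and 10 in the Sox9-null Mst group (background 6.88%). Of all tested genes, 0.169%, 0.477%, 0.796% and 0.88% were called lower in these 4 groups and 1.49% in the average described next. The median log2 change of the 28 members in these 4 comparisons was 0.57, 0.84, 0.70 and 0.91, beside 0.07, 0.21, 0.08 and 0.17 over all tested genes. When the 4 changes were averaged into a single activation effect, 16 of the 28 were called higher, with a background of 12.3%. The scaling to an equal sum called 2, 4, 7 and 7 members and 13 on average (8.63% of all tested genes higher and 2.61% lower), and quantile normalization 2, 4, 6 and 7 and 11 on average (7.01% higher and 3.53% lower). These shares are descriptions only, since 5 of the 28, namely Efnb2, Ephb2, Sema3f, Sema5a and Sema6a, had no control library at a log2 value of 1 and passed the filter through activated libraries. Sema4c reached that value in wild type library 1 but in no other control library, and so also needed activated libraries to pass. In bulk samples such as these, more cells of a type and more RNA per cell cannot be told apart.

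**Figure D1:**
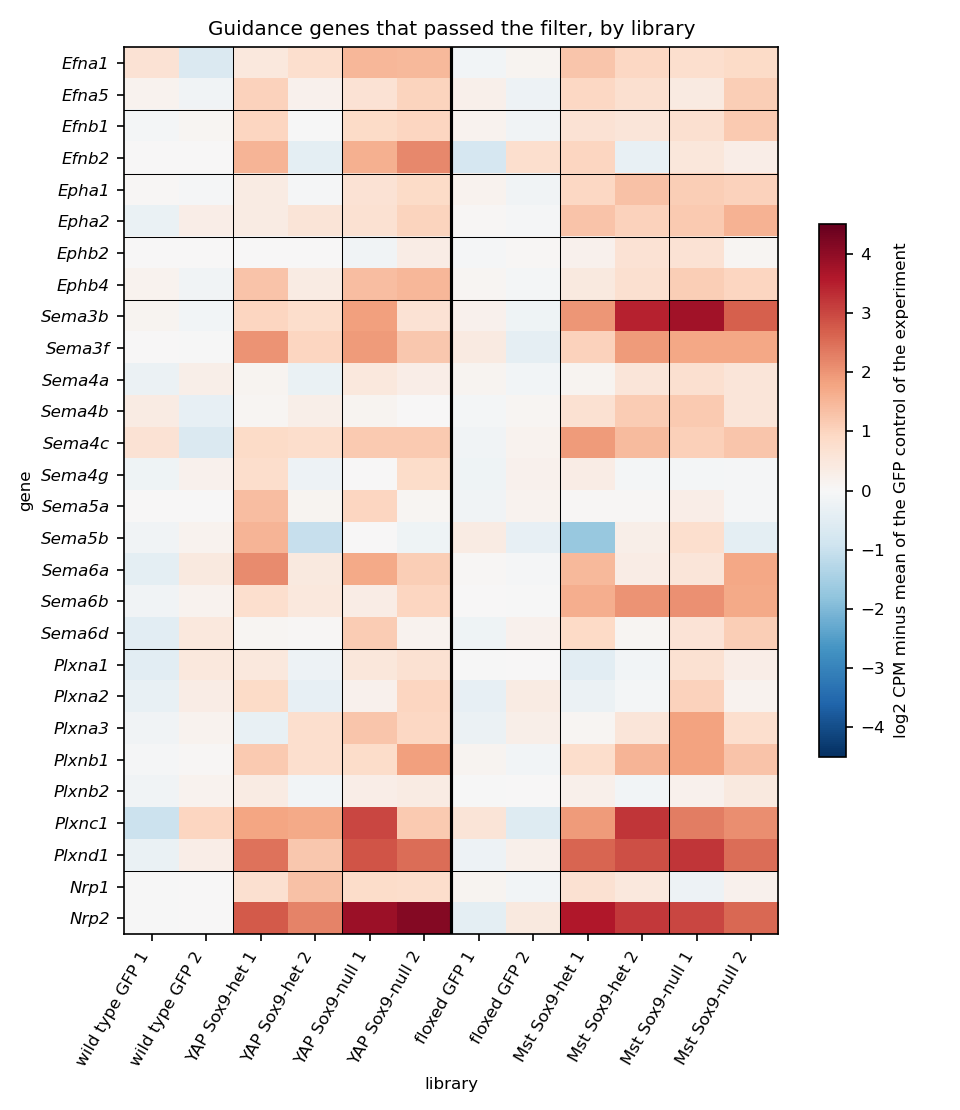
Heat map of the 28 guidance genes that passed the filter (vertical axis) in the 12 libraries (horizontal axis). Colour is the log2 CPM value minus the mean of the GFP control of the same experiment, red for higher and blue for lower. Nrp2, Plxnd1 and Plxnc1 are red in all 8 activated libraries, and Sema3b is darkest in the Mst experiment.

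The other 22 members stayed low. They were the ephrins Efna2, Efna3, Efna4 and Efnb3, the Eph receptors Epha3, Epha4, Epha7, Epha8, Epha10, Ephb1, Ephb3 and Ephb6, the plexins Plxna4 and Plxnb3, and the semaphorins Sema3a, Sema3c, Sema3d, Sema3e, Sema4d, Sema4f, Sema6c and Sema7a. Their values lay between log2 -2.33 and 1.97 in every library, and the highest group mean among them was 1.45. Whether these genes changed could not be read at that level.

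Nrp2, a receptor for class 3 semaphorins and a co-receptor for the lymphatic growth factor VEGF-C, showed the greatest average rise of the 28, by 3.17 ± 0.19 (standard error, SE, here and below) on the log2 scale (limma adjusted p = 2.16e-08). On the log2 CPM scale it was at 2.99 and 3.06 in the wild type control, 5.77 and 5.25 with 1 Sox9 allele floxed under YAP S127A, and 6.89 and 7.15 with both. In the Mst libraries it was at 2.58 and 3.46 in the floxed control, 6.63 and 6.20 in the Sox9-heterozygous Mst group, and 6.04 and 5.59 in the Sox9-null Mst group. All 8 activated libraries lay above all 4 control libraries, and the highest were the Sox9-null YAP libraries. The log2 change was 2.49 ± 0.30 in the Sox9-heterozygous YAP group, 5.61-fold (limma adjusted p = 0.000402). With both alleles floxed it was 3.99 ± 0.30, 15.9-fold (adjusted p = 1.54e-06). The Mst groups gave 3.40 ± 0.30 with 1 Sox9 allele floxed and 2.80 ± 0.30 with both (adjusted p = 8.78e-06 and 2.48e-05). These 4 calls were kept when any 1 of the 12 libraries was left out. The gene lies on the plus strand at chr1:62703285-62818695 in mouse build GRCm38 (GENCODE M21), as do all positions given here, matched by symbol.

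Nrp1, the other neuropilin, changed by less and was called in 1 group. Log2 CPM values were 5.83 and 5.85 in the wild type control, 6.57 and 7.16 with 1 Sox9 allele floxed under YAP S127A, and 6.67 and 6.63 with both. Across the Mst experiment they were 5.96 and 5.72 in the floxed control, 6.51 and 6.33 with 1 Sox9 allele floxed, and 5.60 and 6.03 with both. The Sox9-null Mst libraries overlapped their controls, while those of the other 3 activated groups lay above theirs. Nrp1 was called higher in the Sox9-heterozygous YAP group, by 1.03 ± 0.25 (limma adjusted p = 0.0491), and in the average by 0.60 ± 0.15 (adjusted p = 0.0133). The change in the Sox9-null Mst group was -0.03 ± 0.25 (adjusted p = 0.98). The first call ended without either library of the wild type control, the Sox9-null YAP group or the floxed control, or without the second library of that YAP group itself, with changes of 0.73 to 1.04 and adjusted p of 0.0678 to 0.258. The call for the average ended without either wild type library or without floxed control library 2 (0.54 to 0.60, adjusted p of 0.0502 to 0.0846). The first call also ended in 6 of 8 other settings, namely no filter on low values, quantile normalization, scaling to an equal sum, no trend in the prior variance, only the 6 libraries of the experiment, and the replicate number as a block (0.94 to 1.03, adjusted p of 0.0726 to 0.144). The average ended with quantile normalization (0.44, adjusted p = 0.0993) and with equal sums (0.48, 0.0518). Nrp1 is at chr8:128358604-128503363, plus strand.

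**Figure D2:**
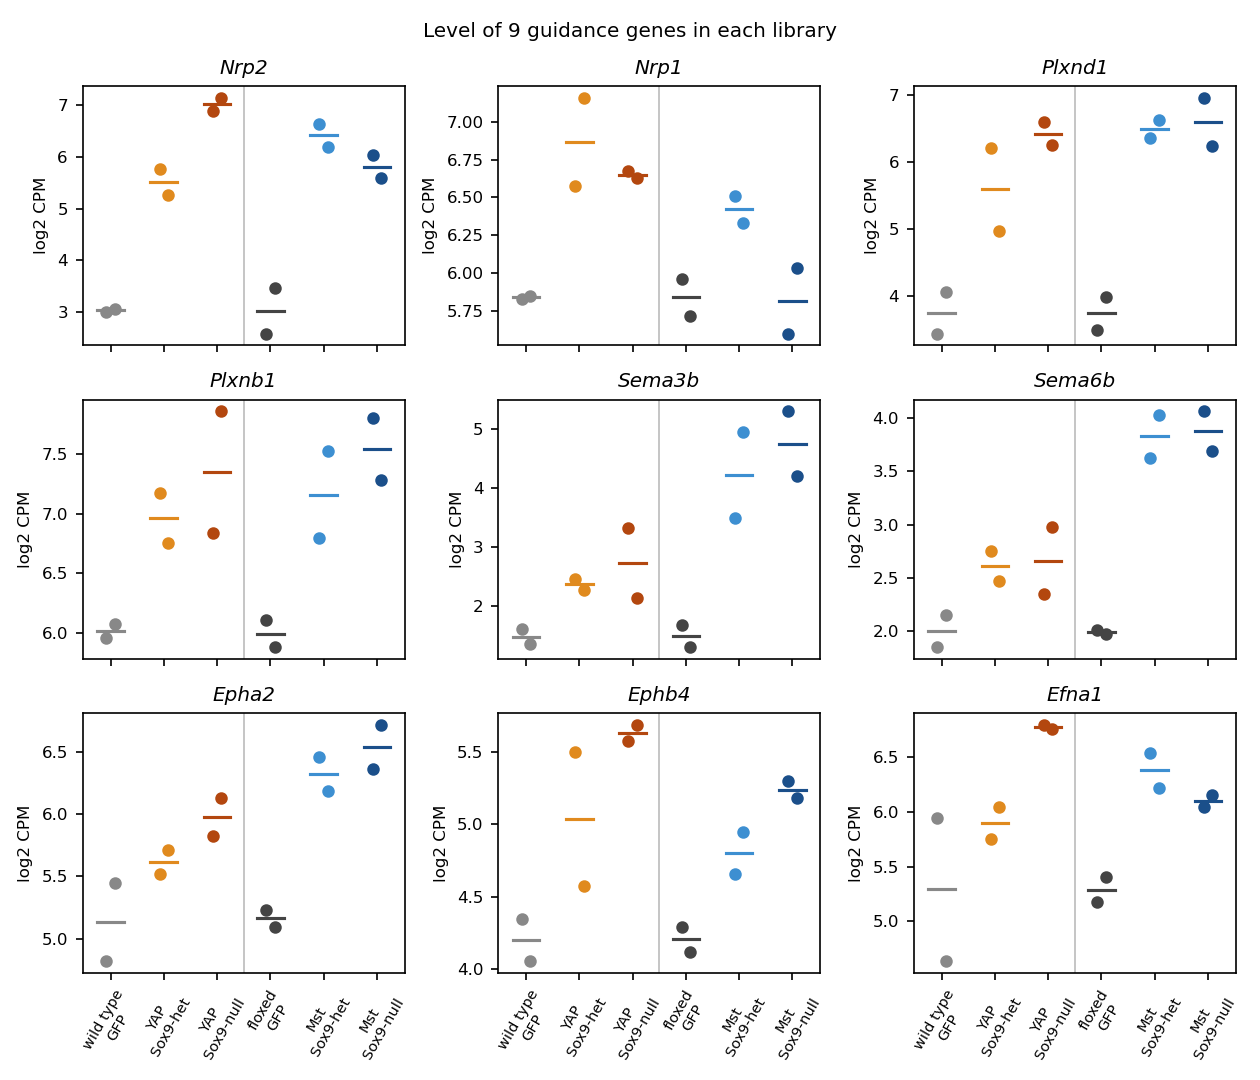
Log2 CPM (vertical axis, a separate range for each gene) of 9 guidance genes in the 6 groups (horizontal axis). Each point is 1 library, the short line is the mean of 2, and the grey line divides the YAP from the Mst experiment. Nrp2 and Plxnd1 stand above the controls in all 4 activated groups, and Sema3b and Sema6b are highest in the 2 Mst groups.

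Plexins are the signal-carrying receptors of semaphorins, and their inner part switches off small GTPases of the Ras and Rap type. Of the 9 in the table, 7 were tested, and Plxnb1, Plxnc1 and Plxnd1 rose on average over the 4 activated groups. Plxnd1, a receptor best known from endothelial cells, was called in all 4 groups. Its log2 CPM values were 3.44 and 4.05 in the wild type control, 6.20 and 4.97 with 1 Sox9 allele floxed under YAP S127A, and 6.59 and 6.25 with both. In the Mst experiment they were 3.49 and 3.98 in the floxed control, 6.36 and 6.63 with 1 Sox9 allele floxed, and 6.95 and 6.24 with both. No activated library overlapped a control library, and the lowest activated one was library 2 of the Sox9-heterozygous YAP group. The log2 change was 1.84 ± 0.37 in that group (limma adjusted p = 0.0151) and 2.67 ± 0.37 with both Sox9 alleles floxed (adjusted p = 0.000284). It was 2.76 ± 0.37 and 2.86 ± 0.37 in the Mst groups with 1 and both Sox9 alleles floxed (adjusted p = 0.000267 and 0.000114), and 2.53 ± 0.22 on average (adjusted p = 1.24e-06). The call in the Sox9-heterozygous YAP group ended without wild type library 1 (1.54, adjusted p = 0.211) or without its own library 1 (1.23, adjusted p = 0.187), and the other 3 were kept with any library left out. The former also ended with no filter (adjusted p = 0.144) or no trend (0.0561).

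Plxnb1, the receptor of the Sema4 protein Sema4d, rose by less. On the log2 CPM scale it was at 5.96 and 6.07 in the wild type control, 7.18 and 6.75 with 1 Sox9 allele floxed under YAP S127A, and 6.84 and 7.86 with both. In the Mst libraries it was at 6.10 and 5.88 in the floxed control, 6.80 and 7.52 in the Sox9-heterozygous Mst group, and 7.80 and 7.29 in the Sox9-null Mst group. All activated libraries lay above all controls. The change was called in both Sox9-null groups, at 1.34 ± 0.33 in the YAP (limma adjusted p = 0.0215) and 1.55 ± 0.33 in the Mst experiment (adjusted p = 0.00745), and in the average at 1.25 ± 0.20 (adjusted p = 0.00049). In the YAP experiment it ended without wild type library 1 (1.28, adjusted p = 0.152), wild type library 2 (1.39, 0.0885) or Sox9-null library 2 (0.82, 0.304). Across the Mst experiment it ended without floxed control library 2 (1.44, adjusted p = 0.0668) or Sox9-null library 1 (1.30, 0.098). The YAP call also ended with no filter, quantile normalization, equal sums or no trend (adjusted p of 0.0505 to 0.0992), and the Mst call with no filter (0.0531). Plxnb1 lies at chr9:109095389-109119917, plus strand.

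Plxnc1, a receptor of Sema7a, was spread more widely. Log2 CPM values were 0.17 and 2.11 in the wild type control, 2.92 and 2.83 with 1 Sox9 allele floxed under YAP S127A, and 4.14 and 2.32 with both. The floxed control had 1.68 and 0.54, the Sox9-heterozygous Mst group 3.02 and 4.34, and the Sox9-null Mst group 3.41 and 3.21. Again no activated library overlapped a control, although the control libraries of each group lay more than 1 log2 unit apart. It was called in the Mst groups with 1 (2.57 ± 0.64, limma adjusted p = 0.0323) and both (2.20 ± 0.64, adjusted p = 0.047) Sox9 alleles floxed, and in the average (2.15 ± 0.39, adjusted p = 0.00144). The first of these ended without either Sox9-heterozygous YAP library (2.57, adjusted p = 0.0519 and 0.0526), floxed control library 2 (2.0, 0.301) or its own library 2 (1.91, 0.355). The Sox9-null Mst call ended without either library of the Sox9-heterozygous YAP group, of the floxed control or of the Sox9-null Mst group itself (1.63 to 2.78, adjusted p of 0.0526 to 0.333). The average held in every such fit. With 1 Sox9 allele floxed the call also ended with no filter, quantile normalization or no trend (2.38 to 2.57, adjusted p of 0.0651 to 0.194). With both it ended in these, with a filter at log2 3, with equal sums and in the 6 libraries alone (1.82 to 2.20, adjusted p of 0.0525 to 0.21).

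The class A plexins and Plxnb2 did not pass the test in any comparison. Plxnb2 had log2 CPM values of 7.92 to 8.55 over all 12 libraries, with 7.92, 8.25, 8.46, 7.96, 8.38 and 8.47 in the YAP experiment in the order wild type, Sox9-heterozygous and Sox9-null. Its Mst experiment values, in the same order from the floxed control, were 8.07, 8.12, 8.33, 7.98, 8.29 and 8.55, and the Sox9-null libraries lay above the controls by less than 0.2 at their nearest. Plxna2 ran 4.99, 5.69, 6.19, 4.97, 5.52 and 6.30 in the YAP experiment and 5.0, 5.71, 5.09, 5.25, 6.38 and 5.51 in the Mst experiment, with overlap between groups. The average activation effect was 0.21 ± 0.16 for Plxnb2 and 0.31 ± 0.25 for Plxna2 (limma adjusted p = 0.438 and 0.482). Plxna3 had 0.72 ± 0.26 (adjusted p = 0.0796) and Plxna1 0.23 ± 0.20 (adjusted p = 0.52).

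**Figure D3:**
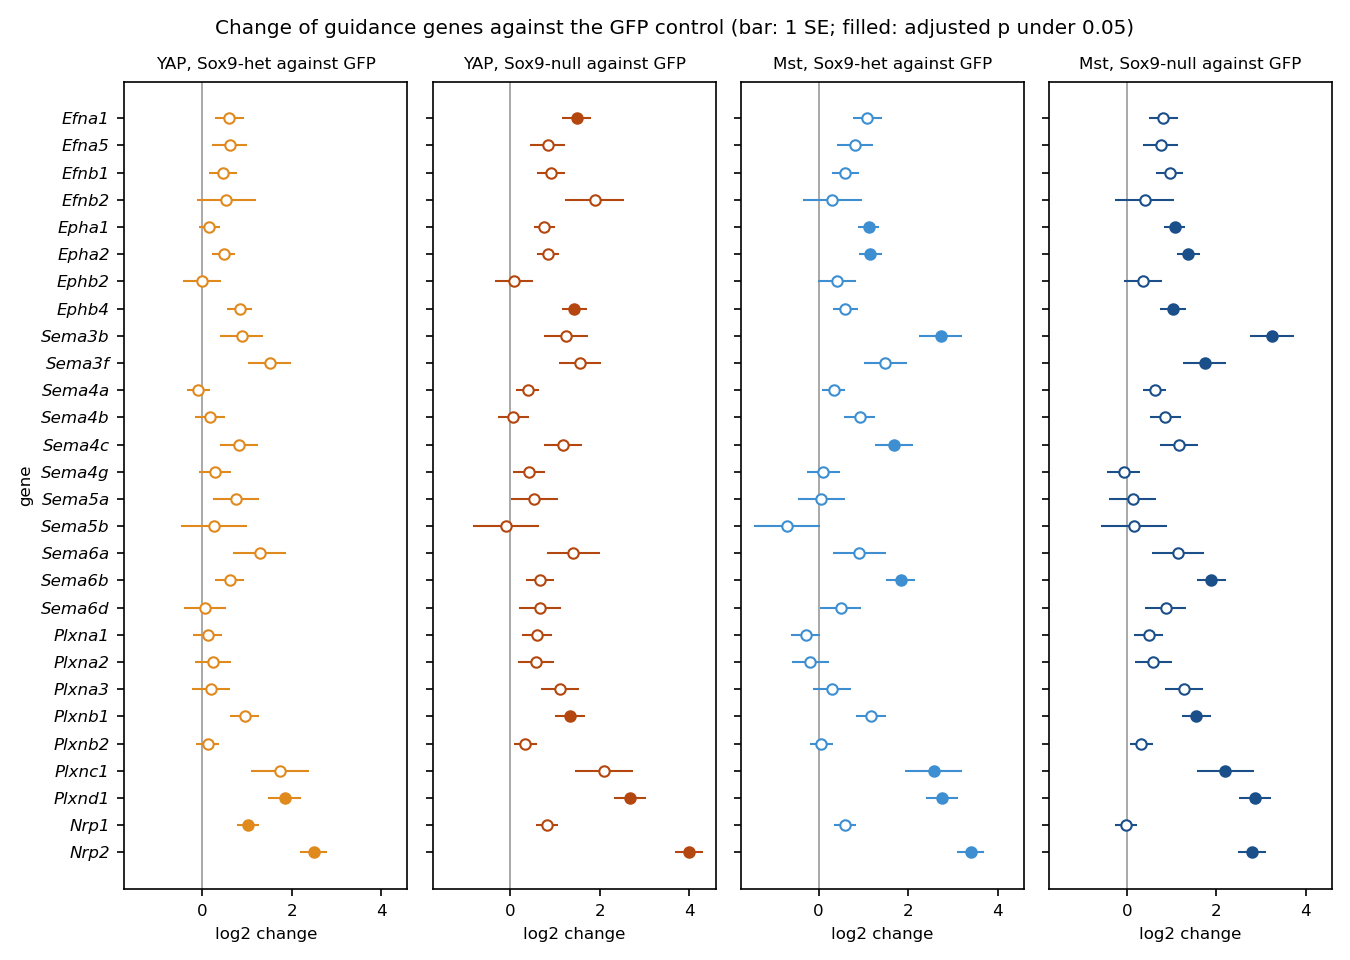
Log2 change (horizontal axis) of each of the 28 tested guidance genes (vertical axis) against the GFP control of its experiment, in the 4 activated groups. Bars are 1 SE and filled points passed an adjusted p under 0.05. No filled point lies below 0, and Nrp2 and Plxnd1 are filled in all 4 panels.

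Among the semaphorins, 11 of 19 were tested and 5 rose on average, namely Sema3b, Sema3f, Sema4c, Sema6a and Sema6b. In the YAP groups none of the 11 passed the test on its own, and in each Mst group 3 did. Sema3b is a secreted ligand of neuropilin receptors. Its log2 CPM values were 1.62 and 1.36 in the wild type control, 2.47 and 2.27 with 1 Sox9 allele floxed under YAP S127A, and 3.32 and 2.14 with both. They were 1.69 and 1.31 in the floxed control, 3.5 and 4.95 in the Sox9-heterozygous Mst group, and 5.29 and 4.20 in the Sox9-null Mst group. All activated libraries were above all controls, and the 4 Mst libraries were above the 4 YAP libraries. The changes were 2.73 ± 0.49 (limma adjusted p = 0.00324) and 3.25 ± 0.49 (adjusted p = 0.000537) in the Mst groups with 1 and both Sox9 alleles floxed. The former ended without its own library 2 (2.0, adjusted p = 0.069), and the latter held with any library left out.

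Sema6b, a membrane-bound ligand of class A plexins, had a like order of libraries. On the log2 CPM scale it was at 1.85 and 2.15 in the wild type control, 2.75 and 2.47 with 1 Sox9 allele floxed under YAP S127A, and 2.35 and 2.98 with both. In the Mst libraries it was at 2.01 and 1.97 in the floxed control, 3.63 and 4.03 with 1 Sox9 allele floxed, and 4.06 and 3.69 with both. The activated libraries were again all above the controls, and those of the Mst experiment were the highest. The change was 1.84 ± 0.32 in the Sox9-heterozygous (limma adjusted p = 0.00284) and 1.89 ± 0.32 in the Sox9-null group of the Mst experiment (adjusted p = 0.00153), and the former ended without its own library 2 (1.64, adjusted p = 0.0568). Sema6b lies at chr17:56123085-56140343, minus strand.

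Sema3f, Sema4c and Sema6a were measured near the floor of the table. Sema3f, a secreted ligand with a preference for Nrp2, had log2 CPM values of 0.25 and 0.22 in the wild type control, 2.27 and 1.21 with 1 Sox9 allele floxed under YAP S127A, and 2.14 and 1.44 with both. It had 0.64 and -0.20 in the floxed control, 1.27 and 2.15 with 1 Sox9 allele floxed, and 1.97 and 1.94 with both. Every activated library was above every control. It was called in the Sox9-null Mst group (1.74 ± 0.48, limma adjusted p = 0.0352) and in the average (1.57 ± 0.29, adjusted p = 0.00164). The former ended without any 1 library of the Sox9-null Mst group or the floxed control (1.32 to 2.16, adjusted p of 0.0537 to 0.308), and also with no filter, quantile normalization, equal sums or only the 6 libraries (1.38 to 1.74, adjusted p of 0.0574 to 0.111).

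Sema4c, a membrane-bound ligand of Plxnb2, had log2 CPM values of 1.48 and 0.20 in the wild type control, 1.71 and 1.62 with 1 Sox9 allele floxed under YAP S127A, and 2.03 and 2.01 with both. It had 0.67 and 0.99 in the floxed control, 2.76 and 2.25 with 1 Sox9 allele floxed, and 1.90 and 2.08 with both. The activated libraries lay above the controls, wild type library 1 being close below the lowest of them. No other control library reached a log2 value of 1, so Sema4c passed the filter only with activated libraries. It was called in the Sox9-heterozygous Mst group (1.68 ± 0.42, limma adjusted p = 0.0341) and in the average (1.21 ± 0.26, adjusted p = 0.00462). The former ended without floxed control library 1 (1.51, adjusted p = 0.199) or 2 (1.84, 0.123) and without its own library 1 (1.42, 0.16) or 2 (1.93, 0.0945). It also ended with no filter, quantile normalization, equal sums or the replicate block (1.46 to 1.68, adjusted p of 0.0502 to 0.109), and the average ended with quantile normalization (0.89, adjusted p = 0.0518).

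Sema6a, also a transmembrane ligand of class A plexins, was called only in the average, at 1.19 ± 0.36 (limma adjusted p = 0.0384). Log2 CPM values were 0.12 and 0.97 in the wild type control, 2.69 and 0.97 with 1 Sox9 allele floxed under YAP S127A, and 2.26 and 1.64 with both. The floxed control had 0.58 and 0.47, the Sox9-heterozygous Mst group 1.99 and 0.87, and the Sox9-null Mst group 1.07 and 2.28. In 3 of the 4 activated groups the libraries lay more than 1 log2 unit apart, and library 2 of the Sox9-heterozygous YAP group matched wild type library 2 to 2 decimals. The call was lost in 8 of the 12 fits that left out a library, with changes of 0.97 to 1.26 and adjusted p of 0.0515 to 0.189. These were the fits without wild type library 1, either floxed control library, either Sox9-null YAP library, library 1 of a Sox9-heterozygous group of either experiment, or Sox9-null Mst library 2. It was lost too with no filter, quantile normalization or equal sums (0.87 to 1.19, adjusted p of 0.0692 to 0.137).

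The semaphorins with the greatest signal on this panel did not pass the test. Sema4g had log2 CPM values of 8.80 and 9.21 in the wild type control, 9.80, 8.78, 9.02 and 9.84 in the Sox9-heterozygous and then Sox9-null YAP libraries, and 8.83, 9.21, 9.34, 8.91, 8.92 and 8.97 in the Mst experiment in the same order. Sema4a had 5.97, 6.51, 6.37, 5.94, 6.73 and 6.54 in the YAP experiment and 6.36, 6.12, 6.36, 6.79, 6.95 and 6.78 in the Mst experiment. Groups overlapped for Sema4g throughout, while the Sox9-null libraries of both experiments lay above their controls for Sema4a. The average effects were 0.19 ± 0.22 and 0.32 ± 0.16 (limma adjusted p = 0.648 and 0.215). Sema4b, Sema5a, Sema5b and Sema6d also gave no call, and Sema5b was the only tested member with an average below 0, at -0.10 ± 0.45.

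Of the 12 Eph receptors Epha1, Epha2, Ephb2 and Ephb4 were tested, and the greatest change among them was 1.43. Epha2, an epithelial receptor for ephrins A such as Efna1, had log2 CPM values of 4.82 and 5.45 in the wild type control, 5.52 and 5.71 with 1 Sox9 allele floxed under YAP S127A, and 5.83 and 6.13 with both. It had 5.23 and 5.10 in the floxed control, 6.46 and 6.19 with 1 Sox9 allele floxed, and 6.36 and 6.71 with both. The activated libraries were above the controls in each experiment, narrowly so in the Sox9-heterozygous YAP group. The change was 1.16 ± 0.25 (limma adjusted p = 0.0145) and 1.37 ± 0.25 (adjusted p = 0.00296) in the Mst groups with 1 and both Sox9 alleles floxed, and 0.96 ± 0.16 on average (adjusted p = 0.000524). The Sox9-heterozygous call ended without floxed control library 1 (1.22, adjusted p = 0.0744) or 2 (1.09, 0.138) or its own library 1 (1.02, 0.0858), and with no filter (0.058).

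Epha1, an Eph receptor of epithelial tissues, had log2 CPM values of 5.29 and 5.22 in the wild type control, 5.62 and 5.20 with 1 Sox9 allele floxed under YAP S127A, and 5.91 and 6.12 with both. Across the Mst experiment it had 5.41 and 5.10 in the floxed control, 6.18 and 6.57 with 1 Sox9 allele floxed, and 6.36 and 6.29 with both. The Sox9-heterozygous YAP libraries overlapped their control, and those of the other 3 activated groups lay above theirs. The calls were 1.12 ± 0.24 (limma adjusted p = 0.0112) and 1.07 ± 0.24 (adjusted p = 0.00996) in the Mst groups with 1 and both Sox9 alleles floxed, and 0.78 ± 0.14 on average (adjusted p = 0.00167). The former ended without floxed control library 2 (0.97, adjusted p = 0.166) or its own library 2 (0.93, 0.165). The latter ended without floxed control library 2 (0.92, adjusted p = 0.126) or its own library 1 (1.03, 0.0956).

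Ephb4, the receptor of Efnb2 that marks veins in vascular development, had log2 CPM values of 4.34 and 4.06 in the wild type control, 5.5 and 4.57 with 1 Sox9 allele floxed under YAP S127A, and 5.58 and 5.69 with both. It had 4.29 and 4.12 in the floxed control, 4.66 and 4.94 with 1 Sox9 allele floxed, and 5.30 and 5.19 with both. All activated libraries were above the controls, and the Sox9-null libraries were the highest of their experiment. It was called in both Sox9-null groups, at 1.43 ± 0.28 in the YAP (limma adjusted p = 0.00515) and 1.03 ± 0.28 in the Mst experiment (adjusted p = 0.0346), and on average at 0.97 ± 0.17 (adjusted p = 0.0012). The former ended without wild type library 2 (1.29, adjusted p = 0.0573) or Sox9-null YAP library 2 (1.37, 0.0613). The latter ended without any 1 library among the floxed controls, Sox9-null YAP and Sox9-null Mst libraries (0.95 to 1.12, adjusted p of 0.0516 to 0.215), and also with no filter, quantile normalization, equal sums or no trend (0.80 to 1.03, adjusted p of 0.0631 to 0.101). Ephb2 was at 0.52 to 1.34 over all 12 libraries and gave no call.

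Of the 8 ephrins, 4 were tested. Efna1, an A-type ligand of Epha1 and Epha2, had log2 CPM values of 5.95 and 4.64 in the wild type control, 5.75 and 6.05 with 1 Sox9 allele floxed under YAP S127A, and 6.79 and 6.76 with both. It had 5.18 and 5.40 in the floxed control, 6.54 and 6.22 with 1 Sox9 allele floxed, and 6.04 and 6.16 with both. The wild type libraries lay more than 1 log2 unit apart and overlapped those with 1 Sox9 allele floxed under YAP S127A, and the Sox9-null libraries of that experiment were the highest. The change was called in the Sox9-null YAP group at 1.48 ± 0.32 (limma adjusted p = 0.00989) and on average at 1.0 ± 0.20 (adjusted p = 0.00258). The former ended without wild type library 2, at 0.83 (adjusted p = 0.128), and without Sox9-null YAP library 1 (1.46, 0.0676) or 2 (1.5, 0.0779), as well as with no filter (0.0609).

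Efna5 and Efnb1 were called in the average only. Efna5, another A-type ephrin, had log2 CPM values of 1.68 and 1.34 in the wild type control and 2.56, 1.69, 2.17 and 2.51 in the Sox9-heterozygous and then Sox9-null YAP libraries. It had 1.75 and 1.28 in the floxed control and 2.44, 2.22, 1.93 and 2.62 in the Mst libraries in that order. Every activated library was above the controls of its experiment, narrowly so for library 2 of the Sox9-heterozygous YAP group. The average was 0.75 ± 0.24 (limma adjusted p = 0.0486), and it was lost in 10 of the 12 fits that left out a library (0.64 to 0.87, adjusted p of 0.0543 to 0.214), all but those without Sox9-heterozygous YAP library 2 or Sox9-null Mst library 1. It was lost too with no filter, quantile normalization, equal sums or the replicate block (0.39 to 0.75, adjusted p of 0.0915 to 0.309).

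Efnb1, a transmembrane ligand of EphB receptors, had log2 CPM values of 3.67 and 3.87 in the wild type control and 4.74, 3.75, 4.63 and 4.74 in the Sox9-heterozygous and then Sox9-null YAP libraries. It had 3.96 and 3.64 in the floxed control and 4.45, 4.34, 4.53 and 4.98 in the Mst libraries in that order. Only library 2 of the Sox9-heterozygous YAP group fell within the range of its control. The average was 0.73 ± 0.19 (limma adjusted p = 0.0153) and was lost without wild type library 1 (0.68, adjusted p = 0.0764) or floxed control library 2 (0.65, 0.0868), and with no filter (0.0529) or quantile normalization (0.0706). Efnb2, the arterial ephrin, was between -0.76 and 2.15 in all libraries and was highest in the Sox9-null YAP group, at 1.56 and 2.15. Its change there was 1.88 ± 0.66 and did not pass the test (adjusted p = 0.105).

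Over all families, 12 of the 28 tested members had every library of all 4 activated groups above both control libraries of the same experiment, as did 847 of all 10681 tested genes (7.93%). They were Efna5, Epha2, Ephb4, Nrp2, Plxnb1, Plxnc1, Plxnd1, Sema3b, Sema3f, Sema4c, Sema6a and Sema6b. Of these, Sema3f, Sema4c and Sema6a needed activated libraries to pass the filter. In single comparisons 14, 22, 19 and 22 members did not overlap with the control, in the order Sox9-heterozygous YAP, Sox9-null YAP, Sox9-heterozygous Mst and Sox9-null Mst, where 34.2%, 51.6%, 45.3% and 52.4% of all tested genes did not. Library 1 of the Sox9-heterozygous YAP group was above library 2 in 22 of the 28 members. The median absolute difference between the 2 libraries was 0.55, against 0.32 to 0.43 between the libraries of the other groups. The share of all tested genes with that order of libraries was not counted, so it cannot be read as particular to the guidance genes.

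Loss of the second Sox9 allele moved no guidance gene past the test. In the YAP experiment 0 of 28 were called by limma between the Sox9-null and Sox9-heterozygous groups (background 0.169%), with 4 at an unadjusted p under 0.05. In the Mst experiment 0 were called (background 0.0468%), with 3 at an unadjusted p under 0.05, and over both experiments 0 (background 0.131%), with 4. The backgrounds are for adjusted p. The share of all tested genes at an unadjusted p under 0.05 was not counted, so the latter counts cannot be read as an excess. The median log2 change of the members was 0.36 in the YAP and 0.16 in the Mst experiment, beside 0.15 and 0.09 over all tested genes. Nrp2 was nearest in the YAP experiment, at 1.51 ± 0.30 (adjusted p = 0.0768), both Sox9-null libraries lying above both Sox9-heterozygous ones. It passed there when library 1 of the Sox9-heterozygous YAP group (1.76, adjusted p = 0.033) or library 1 or 2 of the floxed control (1.51, 0.03 and 0.0302) was left out. With the replicate number as a block its adjusted p was 0.0397. Across the Mst experiment its change was -0.61 ± 0.30 (adjusted p = 0.891), with both Sox9-null libraries below both Sox9-heterozygous ones.

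The activation effects of the 2 experiments were also compared as differences, Mst minus YAP. For the Sox9-heterozygous groups 0 of 28 were called by limma (background 0.197%), with 4 at an unadjusted p under 0.05, and for the Sox9-null groups 0 (background 0.272%), again with 4. Here too the backgrounds are for adjusted p, and the share of all tested genes at that unadjusted p was not counted. The difference for Sema3b was 1.85 ± 0.69 between the Sox9-heterozygous groups (adjusted p = 0.51) and 2.01 ± 0.69 between the Sox9-null groups (adjusted p = 0.466). For Sema6b it was 1.22 ± 0.45 in both (adjusted p = 0.51 and 0.553). For Nrp2 it was 0.91 ± 0.43 and -1.20 ± 0.43 (adjusted p = 0.654 and 0.527), and for Epha1 0.97 ± 0.33 in the Sox9-heterozygous groups (adjusted p = 0.44). Mice of the 2 experiments differed in genotype, viruses and days from injection to sorting as well, and the control values carry no independent comparison of them.

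Markers of endothelial cells, in which neuropilins and Plxnd1 are abundant, moved in the same comparisons. Summed over 22 such markers, the libraries held 47.1 and 114 CPM in the wild type control, 253 and 160 with 1 Sox9 allele floxed under YAP S127A, and 447 and 228 with both. The sums were 69.0 and 74.7 in the floxed control, 476 and 612 in the Sox9-heterozygous Mst group, and 527 and 490 in the Sox9-null Mst group. Of the 21 markers tested, 2, 7, 10 and 13 were called higher in the 4 activated groups in that order, and 18 on average, beside 1.4%, 6.64%, 3.45%, 6.88% and 12.3% of all tested genes. Of the 22 markers, 15 were below a log2 value of 1 in at least 1 control library. Emcn, Robo4 and Vwf had no control library at that value, and Emcn stayed below it in all 12. The counts of called markers are therefore descriptions only. For Plxnd1 the linear values were 10.8 to 16.6 CPM in the 4 control libraries, 31.4 in the activated library with the lowest marker sum, and 73.6 to 124 in the others. Nrp2 was at 119 and 142 CPM in the Sox9-null YAP group, where the marker sums were 447 and 228, and at 65.7 and 48.1 CPM in the Sox9-null Mst group, where they were 527 and 490. Nrp1 was at 48.5 and 65.4 CPM in the Sox9-null Mst libraries, 1 just below and 1 just above its control range of 52.7 to 62.3. In the other activated libraries it was at 80.6 to 143 CPM. The part of these markers in the guidance gene results was not tested.

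**Figure D4:**
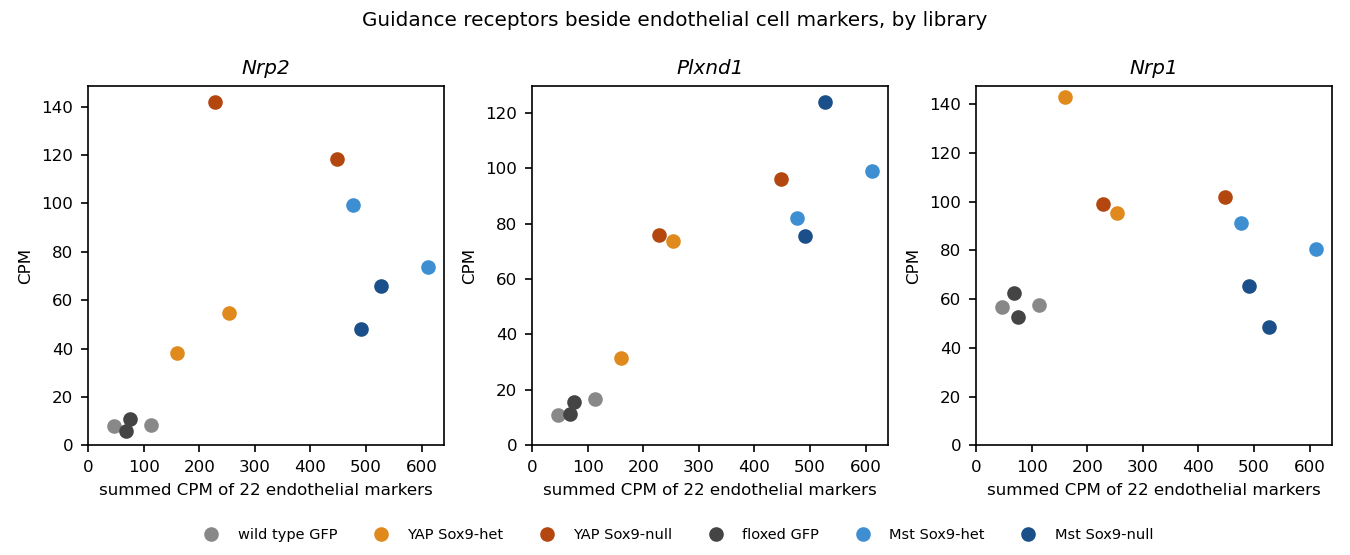
Linear CPM of Nrp2, Plxnd1 and Nrp1 (vertical axes) against the summed CPM of 22 endothelial marker genes (horizontal axis), with 1 point per library and colour for the group. The 4 control libraries have the lowest marker sums, and Nrp2 is above them in all activated libraries, highest in the 2 Sox9-null YAP libraries at sums of 228 and 447. Nrp1 is near its controls in the Sox9-null Mst group and above them in the other activated groups.

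Other marker lists were summed in the same way. Macrophage markers summed to 26.9 to 87.2 CPM in the control libraries, 54.5 to 55.4 and 71.8 to 109 in the YAP groups with 1 and both Sox9 alleles floxed, and 53.2 to 159 and 81.6 to 346 in the Mst groups in that order. Stellate cell markers summed to 43.8 to 61.2 in the controls, 50.7 to 74.9 and 52.6 to 89.7 in the YAP groups, and 74.0 to 97.4 and 109 to 136 in the Mst groups. Against the controls, the macrophage markers Cd68 and Csf1r and the stellate marker Ecm1 were called higher in the Sox9-null Mst group. The stellate marker Dcn was called higher in both Mst groups. Cholangiocyte markers, a list that holds Sox9 itself, summed to 189 to 386 in the controls, 1620 to 2583 in the YAP groups and 3478 to 4240 in the Mst groups. Epcam, the marker used to gate out biliary cells, was at a log2 value of 0.83 in each control library. It reached 3.14 in library 1 of the Sox9-heterozygous YAP group, where its change was called (1.81 ± 0.41, limma adjusted p = 0.0349). With both alleles floxed under YAP S127A the change was 0.885 ± 0.41 (adjusted p = 0.23). The Mst groups, with the highest cholangiocyte sums, had Epcam changes of only 0.105 and 0.005 with 1 and both Sox9 alleles floxed, without a call. The part of these marker lists in the guidance gene results was not tested either.

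Genes that act with these receptors were taken from lists written for this purpose. Their counts stand beside 1.4%, 6.64%, 3.45% and 6.88% of all tested genes called higher in the Sox9-heterozygous YAP, Sox9-null YAP, Sox9-heterozygous Mst and Sox9-null Mst groups, and 12.3% on average. Of 22 tested partners of Eph and ephrin signalling, 1, 3, 1 and 2 were called higher in these groups in that order, 5 on average and 0 lower. Kalrn, which acts downstream of EphB receptors in neurons, was called in all 4, at 1.79, 2.78, 3.06 and 4.05 (average 2.92 ± 0.17, limma adjusted p = 2.19e-08). The adaptor Nck2 (1.03 ± 0.25, adjusted p = 0.0117) and the kinases Src (0.96 ± 0.24, 0.0125) and Abl1 (0.62 ± 0.16, 0.0139) also rose on average. Of 20 tested partners of semaphorins and plexins, 1, 3, 2 and 5 were called higher in the 4 groups, 9 on average and 0 lower. The leading ones on average were Limk1, a kinase that acts on cofilin (1.40 ± 0.23, adjusted p = 0.000608), the plexin-binding GTPase Rnd2 (1.20 ± 0.16, 0.000114), Rras, a target of the plexin GTPase-activating domain (1.12 ± 0.17, 0.000282), and the collapsin response protein Dpysl3 (1.09 ± 0.26, 0.0106).

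Of 10 tested ligands and co-receptors of the neuropilins, 1, 5, 3 and 5 were called higher in the 4 groups and 6 on average, with 0 lower, against the same shares of all tested genes. The VEGF receptors Flt4 and Kdr rose on average by 2.42 ± 0.25 and 2.39 ± 0.34 (limma adjusted p = 7.09e-06 and 0.000151), and Flt1 by 1.47 ± 0.31 (adjusted p = 0.00368). All 3 are also on the endothelial list. The ligand Tgfb1 rose too (1.74 ± 0.29, adjusted p = 0.000699). Of 9 tested netrin, Slit, Robo and related guidance genes, 0, 2, 0 and 2 were called higher in the groups in the same order, and 3 on average. These were the netrin receptor Unc5b (1.32 ± 0.22, adjusted p = 0.00056), the endothelial receptor Robo4 (1.55 ± 0.33, 0.00422), which is also on the endothelial list, and the netrin Ntn4 (0.94 ± 0.26, 0.0224). For scale, of 20 tested genes listed as YAP and TAZ targets, 4, 15, 8 and 9 were called higher in the 4 groups and 16 on average.

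The 250 bases before the RefSeq start (build GRCm38.p6) were searched on both strands for the letters GGAATG, the core bound by the TEAD partners of YAP, and ACAATG, a SOX core. The first was found in 12.6% of 32851 promoters and the second in 10.7%. Of the 28 tested members 24 matched by symbol, with 33 promoters, of which 6 held the TEAD letters and 2 the SOX letters. Those of Plxnd1, Epha1 and Epha2 are shown since these genes were called and their windows overlap no annotated exon. They are chr6:115995006-115995255 on the minus strand for Plxnd1, chr6:42373269-42373518 on the minus strand for Epha1 and chr4:141300971-141301220 on the plus strand for Epha2, each 5′ to 3′ on the gene's strand. Capitals mark CATTCC, the reverse complement of the TEAD letters.
Plxnd1: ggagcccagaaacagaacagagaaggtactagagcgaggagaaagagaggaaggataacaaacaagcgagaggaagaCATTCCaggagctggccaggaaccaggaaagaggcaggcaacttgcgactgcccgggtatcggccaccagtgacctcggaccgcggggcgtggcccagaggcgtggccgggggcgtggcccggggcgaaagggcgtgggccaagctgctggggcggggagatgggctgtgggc
Epha1: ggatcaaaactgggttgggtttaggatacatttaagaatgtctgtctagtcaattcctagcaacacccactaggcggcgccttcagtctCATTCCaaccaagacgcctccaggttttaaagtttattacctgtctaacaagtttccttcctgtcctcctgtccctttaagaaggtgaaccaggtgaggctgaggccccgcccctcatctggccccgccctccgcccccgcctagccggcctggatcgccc
Epha2: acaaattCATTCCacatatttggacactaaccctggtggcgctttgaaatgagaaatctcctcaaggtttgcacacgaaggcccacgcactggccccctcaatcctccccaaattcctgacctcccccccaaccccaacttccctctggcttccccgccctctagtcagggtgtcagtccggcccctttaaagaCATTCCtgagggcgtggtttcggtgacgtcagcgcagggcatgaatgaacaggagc
The first capital lies 173 bases before the start in Plxnd1 and 161 bases before it in Epha1. Epha2 has 2 such sites, at 243 and 56 bases before the start. The letters are a match in the sequence only, and no binding was measured.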

How the data were processed

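RNA of sorted cells was amplified with an Ion AmpliSeq panel (1 amplicon for each mouse gene), per the labels. The deposited values are log2 CPM for 16116 symbols. Alignment, counting, build and normalization were not given in the sources used here. Distances of libraries from their group means were whole multiples (tolerance 2e-06) of a gene-specific step in 16080 of 16080 genes that vary within groups. Relative to a grid of 0.005 they had been multiplied by a median factor of 1.58 (1.10 to 3.01 for the tested members). This bears on every p-value. Depth per library is unknown, so no counting interval is given.

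Tested genes reached log2 1 in 2 or more libraries. Group means over all 12 libraries were fitted with limma 3.58.1 in R 4.3.3 (trended prior variance), with Benjamini-Hochberg adjusted p under 0.05, two-sided, and the code was tested on simulated data. Values in every library are given for members called in any comparison within an experiment or in an average, and for those with a mean of at least 5. Partner genes are named where called, up to 4 per list and comparison. The members, lists and rules were chosen with earlier results of these data known. Same-numbered libraries correlated in their deviations at -0.644 to -0.0627. In the Mst data, averages over libraries numbered 1 and over those numbered 2 differed by a median of only 0.0051 per gene. With such balance the correlations there (-0.644 to -0.315) had to lean negative, so they cannot show whether the numbers are pairs. The YAP data had a median of 0.168 and correlations of -0.117 to -0.0627. The numbers were not treated as pairs.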

Additional observations from a re-analysis of the deposited data

Results flagged for a closer look

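Nrp2, Efna1 and Sema4c were picked because their libraries separated in opposite directions with loss of the second Sox9 allele. Every Sox9-null library lay above both Sox9-heterozygous libraries in the YAP experiment and below both in the Mst experiment. Within a single experiment, 12 (YAP) and 9 (Mst) of the 28 members separated in either direction, beside 28.2% and 30.5% of all tested genes. The share of all tested genes that separated in opposite directions was not counted. Sema4c was measured near the floor and needed activated libraries to pass the filter. For Nrp2 the difference between the effects, Mst minus YAP, was -2.11 ± 0.43 (SE) on the log2 scale, with an unadjusted p of 0.000173 and a limma adjusted p = 0.205. For Efna1 the effects were 0.88 and -0.28 and the difference -1.16 ± 0.46 (limma adjusted p = 1). For Sema4c they were 0.36 and -0.52 and the difference -0.88 ± 0.60 (limma adjusted p = 1). None of the 3 differences passed the test over all genes, where 0% of tested genes did and 2 of the 28 members had an unadjusted p under 0.05. How many of all tested genes had such an unadjusted p was not counted.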

How the results depend on the processing

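Of 42 calls on single members, 22 held with any library left out and 21 under all settings chosen with the design. Nrp2 held in the comparisons with control. With no filter on low values, members called were 1, 3, 5 and 6 in the Sox9-heterozygous YAP, Sox9-null YAP, Sox9-heterozygous Mst and Sox9-null Mst groups, where 0.447%, 2.29%, 1.17% and 2.58% of all 16116 genes were called in either direction. Without a trend in the prior variance, 1 was called in the first (1.1% of all tested). Leaving out 1 library gave 1 to 3, 3 to 9, 3 to 9 and 5 to 11 calls in these groups, and 0 to 1 (Nrp2) for Sox9 loss in the YAP experiment. The lowest counts came without wild type library 1 (1), Sox9-null YAP library 2 (3), Sox9-heterozygous Mst library 2 (3), and floxed control library 2 or Sox9-null Mst library 1 (5). The replicate numbers as a block, whose meaning the labels do not give, gave 2, 6, 8 and 10 calls and 15 on average. Of all tested genes, 1.92%, 6.51%, 4.23%, 7.39% and 12.4% were called. For Sox9 loss the block gave 1 call in the YAP experiment (Nrp2, background 0.365%) and 0 in the Mst experiment and over both. It gave 0 in the differences between experiments. Deviations divided by the recovered factor, an alternative chosen after seeing the data, gave 12, 19, 14 and 18 calls and 22 on average, beside 11.5%, 27.5%, 19.7%, 26.4% and 36% of all tested genes. For Sox9 loss they gave 3 in the YAP experiment (Plxna3, Nrp2, Efnb2; 4.36% of all tested) and 3 over both (Plxna1, Sema4a, Plxna3; 7.62%). For differences between experiments they gave 4 in the Sox9-heterozygous groups (Epha2, Epha1, Sema3b, Sema6b; 5.79%), 3 in the Sox9-null groups (Nrp2, Sema3b, Sema6b; 5.33%) and 1 for Sox9 loss (Nrp2; 0.543%). The cause of these shifts was not tested, other than the smaller spread that the last setting makes by construction. No direction reversed.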

Other observations

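Some of these genes are neighbours on the chromosome. Sema3b (chr9:107597674-107609229) and Sema3f (chr9:107681500-107710475), both on the minus strand, lie 72270 bases apart with 3 coding genes between them. Both rose on average over the activated groups, by 2.03 ± 0.30 and 1.57 ± 0.29 (limma adjusted p = 0.000216 and 0.00164). Sema3f passed the filter only through activated libraries. Efna1 is followed on chromosome 3 by Efna3 and Efna4, with gaps of 32756 and 10424 bases and no coding gene between them. Efna1 rose on average, while Efna3 and Efna4 stayed too low to be tested. Sema4a lies 810550 bases from Efna1 with 31 coding genes between them, and it was tested but not called in the average.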
